A study of Homo sapiens with 15 samples.

Results

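The genes described here are 42 members of the amino acid stress program of the transcription factor ATF4, chosen by name from the deposited table of expression values, which held 26443 genes with values in this series. The members fall into 6 roles: 6 factors of the response, 4 stress effectors, 7 genes of serine synthesis and mitochondrial one-carbon metabolism, 6 other enzymes of amino acid synthesis, 7 amino acid transporters, and 12 genes of tRNA charging and export. All 42 had values, and 41 passed the filter on low values of at least 1 RPKM (reads scaled to gene length and library size) in at least 3 of the 15 libraries. The exception was ALDH1L2, a mitochondrial folate enzyme, whose group means lay between 0.0417 RPKM in shJarid2 and 0.0925 RPKM in pLKO, so it was not tested.

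When a cell runs short of an amino acid or its endoplasmic reticulum is overloaded, kinases phosphorylate the initiation factor eIF2, most translation slows, and the ATF4 mRNA, which is held back by upstream open reading frames, is translated. ATF4 then pairs with C/EBP proteins on composite elements and raises genes that make, import and charge amino acids. Under lasting stress the ATF4 target CHOP, encoded by DDIT3, joins it, and feedback genes such as TRIB3 are raised.

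The samples were LNCaP cells, a human prostate cancer cell line that responds to androgen, with a wild-type genotype label, grown in RPMI with serum and infected with lentivirus for 4 to 5 days. Separate groups received a short hairpin RNA against PALI1, an accessory protein of the Polycomb complex PRC2 (shPALI1), the histone methyltransferase G9a (shG9a), JARID2, another PRC2 accessory protein (shJarid2), or SUZ12, a core subunit of PRC2 (shsuz12), and 1 group received the control vector (pLKO). Each of the 5 groups had 3 libraries of total RNA, and the labels give 1 hairpin name per target, so a hairpin and its target cannot be told apart. The labels do not say that replicates came from separate cultures, so the p-values reflect only how far libraries of a group differ, and that spread may be technical.

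Depth worked out from the values was 10.56 to 19.36 M reads per library, so that 1 RPKM in a 2 kb gene was worth 21.1 to 38.7 reads. The gene named by each hairpin was lower in its own group, with C10orf12, the reading frame of PALI1, at 23.8% of the pLKO mean in shPALI1, EHMT2, which encodes G9a, at 25.7% in shG9a, JARID2 at 18.3% in shJarid2 and SUZ12 at 12.5% in shsuz12. Outside its own group EHMT2 was lower in shJarid2 (a change of -0.37 on the log2(RPKM + 1) scale, adjusted p in limma of 9.9e-04) and shsuz12 (-0.24, 0.015), and JARID2 was higher in shsuz12 (0.45, 2.2e-04). The library shJarid2 replicate 3 stood apart, with correlations across genes of 0.9888 and 0.9905 with the other shJarid2 libraries, against 0.9958 between those, and the results in shJarid2 against pLKO without it are given with the counts over all roles. All 9 prostate luminal markers were at 1 RPKM or more, and their summed level was 865 to 974 RPKM in shPALI1, 1073 to 1137 in shG9a, 1579 to 1865 in shJarid2, 1337 to 1438 in shsuz12 and 2031 to 2221 in pLKO. Of the 17 basal, fibroblast, endothelial and immune markers, the T cell gene CD3E was at 0 in all 15 libraries, and 5 reached 1 RPKM in the mean of a group. The basal keratin KRT14 averaged 4.02 RPKM in shJarid2 and at most 0.361 RPKM elsewhere, while the basal markers KRT5 and TP63 were at 0 in all groups but shPALI1. COL1A1 averaged 1.41 RPKM in shJarid2 and 4.52 RPKM in pLKO, COL3A1 2.02 RPKM in shPALI1 and 0.279 RPKM in pLKO, LUM 1.06 RPKM in shsuz12 and 0.0362 RPKM in pLKO, and VWF 2.35 RPKM in shG9a and 0.825 RPKM in pLKO. Exons of 15 members share 29 to 1324 bases with a gene on the opposite strand, and without use of strand in the counting, which is not given in the sources used here, reads of such partners cannot be told apart. On the same strand, exons of ASNS share 1985 bases with AC079781.5 and those of DDIT3 105 bases with AC022506.1. Use of strand would not part these. The part of the marker differences in the results below was not tested, and in bulk RNA fewer cells of a kind and less RNA per cell cannot be told apart.

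Because ATF4 and C/EBP dimers bind a shared composite element, the promoters of the members were searched for the letters TGATGNAA on both strands. RefSeq promoters on GRCh38.p14, from 250 bases before to 50 bases after the gene start, were found for 34 of the 42 members, with none in the table for PSPH, SHMT2, NUPR1, SLC7A11, GPT2, PYCR1, ALDH1L2 and YARS. The element stood in 10 of the 34 (29.4%), against 401 of 15843 promoters of protein-coding genes (2.53%). The 10 were ASNS, CHAC1, SLC7A1, SLC3A2, CARS, AARS, MARS, NARS, TARS and IARS, so 6 of them encode tRNA synthetases. A match of letters is a description and not a binding site. Windows of 6 genes that recur in the results are shown 5′ to 3′ on the strand of the gene, with the element or its reverse complement in capitals:
ASNS: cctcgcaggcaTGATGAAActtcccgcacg
CHAC1: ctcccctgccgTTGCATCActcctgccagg
SLC3A2: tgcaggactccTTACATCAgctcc
CARS: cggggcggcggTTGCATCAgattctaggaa
AARS: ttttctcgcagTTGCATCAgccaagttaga
NARS: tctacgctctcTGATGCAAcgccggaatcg

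The ASNS window lies on the minus strand at chr7:97872458-97872487, and its element begins 68 bases before the gene start. The CHAC1 window lies on the plus strand at chr15:40953251-40953280, with the element 209 bases before the start, and that of SLC3A2 on the plus strand at chr11:62881725-62881748, with the element at base 38 after the start. The CARS window lies on the minus strand at chr11:3057407-3057436, with the element 2 bases before the start, and that of AARS on the minus strand at chr16:70289675-70289704, 187 bases before the start. The NARS window lies on the minus strand at chr18:57621804-57621833, with the element at base 15 after the start. The starts are those of the RefSeq promoters, and GENCODE v29 places them elsewhere. In GENCODE v29 all of these windows but that of AARS lie inside the gene, which begins at 62856102 for SLC3A2 and at 40952962 for CHAC1. CARS, AARS and NARS are the older symbols used in the deposited table for the genes that RefSeq lists as CARS1, AARS1 and NARS1.

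Over all roles, the program was lower in shsuz12 than in pLKO, and mixed in the other 3 groups. Changes are given on the log2(RPKM + 1) scale with their SE, which understates the change of genes with low values, and a gene passed at a Benjamini-Hochberg adjusted p under 0.05 in limma over all 12715 genes tested. In shsuz12, 36 of the 41 tested members fell and 2 rose, where 32.8% of all genes tested fell and 21.1% rose. In the same comparison the 3 shsuz12 libraries all lay below the 3 pLKO libraries for 36 members, against 38.0% of all genes. The median change of the members was -0.66, beside -0.078 for all genes tested. In shPALI1, 13 members rose and 6 fell, where 16.5% of all genes rose and 25.1% fell, and the median change was 0.08, beside -0.052 for all genes. In shG9a, 7 members rose and 16 fell, where 18.4% of all genes rose and 24.7% fell, and the median was -0.13, beside -0.040. The rises in shG9a numbered 2 without pLKO replicate 3 or shG9a replicate 2 and 4 without any other library of that comparison. After rescaling to a common sum, 10 members fell in shG9a, with the calls of CHAC1, SFXN1, CBS, EPRS, YARS and IARS lost (adjusted p of 0.087 to 0.43), and of all genes 3173 then rose and 2296 fell, where 2338 rose and 3139 fell before rescaling. With no filter on low values, the calls of SLC7A1, VLDLR, AARS, CEBPB, CHAC1 and IARS in shG9a were lost (0.05 to 0.061). In shJarid2, 15 members rose and 12 fell, where 23.8% of all genes rose and 27.2% fell, and the median was 0.08, beside -0.038. In the model over the 6 libraries of shJarid2 and pLKO alone, 9 rose and 9 fell, with the rises of DDIT3, VLDLR, PSPH, ALDH18A1, CARS and YARS and the falls of STC2, ASNS and XPOT no longer passing (adjusted p of 0.063 to 0.13). Each of the 4 comparisons uses the same 3 pLKO libraries, so they are not independent of each other.

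Without shJarid2 replicate 3, 14 members rose and 11 fell in shJarid2 against pLKO, and the median change was 0.01. Of the 27 calls 24 were kept, those of DDIT3, CARS and STC2 were lost, and SLC7A1 passed. Among the rises the change without that library was 1.42 for NUPR1, 0.82 for SLC7A11, 0.58 for TRIB3, 0.58 for AARS, 0.48 for CHAC1, 0.46 for VLDLR, 0.32 for CEBPG, 0.31 for SLC7A5, 0.29 for SLC3A2, 0.29 for PSPH, 0.27 for SLC1A5, 0.21 for YARS and 0.19 for ALDH18A1. Among the falls it was -1.25 for MTHFD2, -0.79 for NARS, -0.73 for SLC38A2, -0.62 for SLC1A4, -0.61 for CTH, -0.52 for EPRS, -0.47 for TARS, -0.45 for SFXN1, -0.41 for GPT2, -0.26 for ASNS and -0.20 for XPOT. By role, 3 factors then rose and 0 fell, 2 stress effectors rose and 0 fell, 5 transporters rose and 2 fell, and 2 genes of tRNA charging and export rose and 4 fell, with the counts of both roles of synthesis as in the full set.

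**Figure D1:**
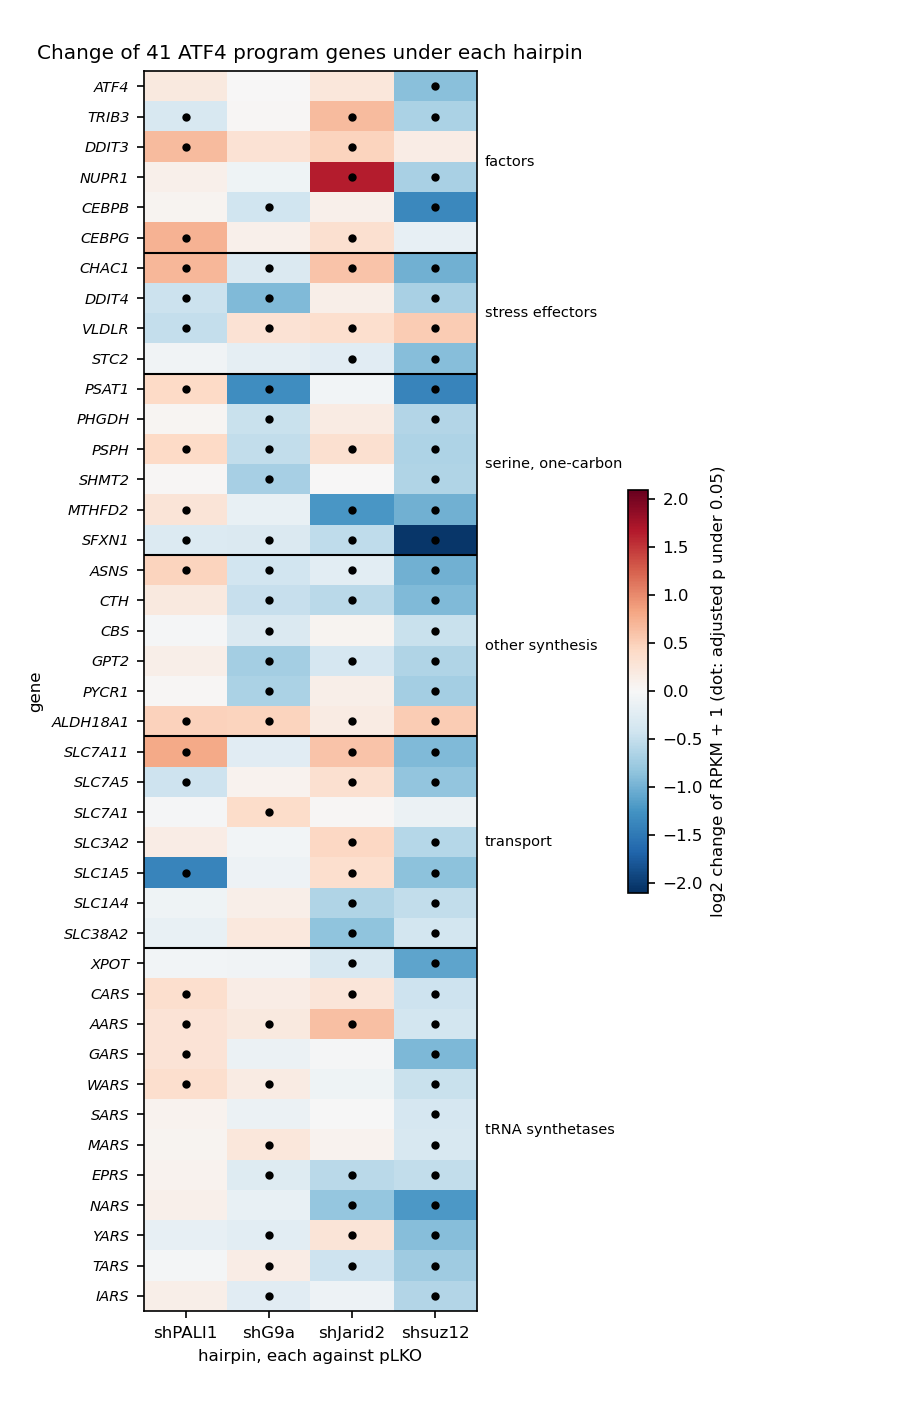
Change of each of the 41 tested program genes (rows, grouped by role) under each hairpin against pLKO (columns); the colour gives the change on the log2(RPKM + 1) scale and a dot an adjusted p under 0.05 in limma. The shsuz12 column is blue with a dot for 36 genes, and the other columns hold both colours.

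The factors of the response differed by hairpin, and ATF4 itself was called in shsuz12, while its calls in the other groups depended on the scaling or on single libraries. ATF4 was at 131, 121 and 112 RPKM in the shPALI1 libraries, 103, 108 and 107 in shG9a, 114, 113 and 150 in shJarid2, 54.2, 57.7 and 59.3 in shsuz12, against 114, 107 and 96.6 in pLKO. The 3 shsuz12 libraries lay below the 12 others, and those of the other hairpins overlapped pLKO. In shsuz12 ATF4, which lies at chr22:39519695-39522685 on the plus strand, was at 54% of the pLKO mean, -0.87 ± 0.10, adjusted p = 6.9e-06. The change was 0.20 ± 0.10, adjusted p = 0.14 in shPALI1, 0.01 ± 0.10, adjusted p = 0.96 in shG9a and 0.24 ± 0.10, adjusted p = 0.064 in shJarid2. These 3 calls depend on the scaling: after quantile normalization ATF4 was higher in shPALI1 (adjusted p = 4.6e-05), shG9a (0.011) and shJarid2 (0.011), after rescaling to a common sum in shPALI1 (0.0054) and shJarid2 (0.0052), after correction for length and GC content in shPALI1 (0.001) and shJarid2 (0.012), and after median ratio scaling in shJarid2 (0.016). ATF4 in shJarid2 also passed when pLKO replicate 1 or shJarid2 replicate 1 or 2 was left out, at adjusted p of 0.034 to 0.047.

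DDIT3 encodes CHOP, a C/EBP family factor of the late stress response. DDIT3 had 20.2, 18.3 and 16.1 RPKM in the shPALI1 libraries, 12.7, 13.2 and 15.5 in shG9a, 13.4, 12.7 and 22.2 in shJarid2, 10.7, 13.6 and 13.3 in shsuz12, against 11, 11.5 and 10.6 in pLKO. The shPALI1, shG9a and shJarid2 libraries lay above pLKO, and shJarid2 replicate 3 was far above the other shJarid2 libraries. DDIT3 rose in shPALI1 (0.67 ± 0.16, adjusted p = 0.0046) and in shJarid2 (0.47 ± 0.16, adjusted p = 0.027), and in the second the call was lost without shJarid2 replicate 3 or pLKO replicate 1 or 3 (adjusted p of 0.06 to 0.098) and with no filter on low values (0.088). In shG9a the change of DDIT3 was 0.30 ± 0.16, adjusted p = 0.16. The rise passed there after rescaling to a common sum (0.02), in the model over the 6 libraries (0.02) and after correction for length and GC content (0.022). Exons of DDIT3 share 62 bases with MARS on the opposite strand and 105 bases with AC022506.1 on the same strand. TRIB3, a pseudokinase that binds ATF4 and CHOP and damps the response, moved otherwise. TRIB3 measured 14.7, 16.3 and 13.9 RPKM in the shPALI1 libraries, 18.7, 20.4 and 18.5 in shG9a, 28, 29.6 and 34.6 in shJarid2, 11.3, 12.2 and 11.5 in shsuz12, against 23, 18.7 and 16 in pLKO. The shJarid2 libraries were the highest, the shsuz12 libraries the lowest, and shPALI1 overlapped pLKO. TRIB3 rose in shJarid2 (0.66 ± 0.11, adjusted p = 1.9e-04) and fell in shsuz12 (-0.66 ± 0.11, adjusted p = 1.8e-04). It was also lower in shPALI1 (-0.33 ± 0.11, adjusted p = 0.029), where the call was lost without shPALI1 replicate 1 or 3 or pLKO replicate 1 or 2 (adjusted p of 0.057 to 0.14), with no filter on low values (0.073) and in the model over the 6 libraries (0.065), and in shG9a the change was 0.02 ± 0.11, adjusted p = 0.92.

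The largest rise of any member in any comparison with pLKO was that of NUPR1, a small stress-induced chromatin protein, in shJarid2. NUPR1 was at 114, 101 and 93.5 RPKM in the shPALI1 libraries, 93.2, 88.9 and 86.1 in shG9a, 251, 262 and 406 in shJarid2, 55.4, 62.3 and 58.7 in shsuz12, against 106, 96.8 and 83.3 in pLKO. The 3 shJarid2 libraries lay above the 12 others, with replicate 3 the highest, and the 3 shsuz12 libraries lay below the 12 others. In shJarid2 NUPR1 was at 321% of the pLKO mean, 1.65 ± 0.15, adjusted p = 6.6e-07, and without shJarid2 replicate 3 the change was 1.42 with an adjusted p of 7.1e-08. In shsuz12 it fell (-0.68 ± 0.15, adjusted p = 0.0016). CEBPB and CEBPG encode 2 of the C/EBP proteins that pair with ATF4. CEBPB had 6.47, 7.27 and 6.18 RPKM in the shPALI1 libraries, 4.46, 4.52 and 4.4 in shG9a, 6.08, 6.32 and 8.34 in shJarid2, 1.89, 1.68 and 2.01 in shsuz12, against 7.67, 6.61 and 4.88 in pLKO. The shsuz12 libraries were below all others, and pLKO spread from 4.88 to 7.67 RPKM. CEBPB was at 29.1% of the pLKO mean in shsuz12, -1.35 ± 0.13, adjusted p = 1.1e-06, and fell in shG9a (-0.42 ± 0.13, adjusted p = 0.018), where the call was lost without shG9a replicate 3 or pLKO replicate 1 or 2 (adjusted p of 0.05 to 0.092). CEBPG measured 19.6, 18 and 17.7 RPKM in the shPALI1 libraries, 13.2, 10.6 and 11.3 in shG9a, 13.6, 13.8 and 14.1 in shJarid2, 10.2, 9.35 and 8.91 in shsuz12, against 11.3, 11.9 and 9.25 in pLKO. The 3 shPALI1 libraries were above the 12 others. CEBPG rose in shPALI1 (0.73 ± 0.09, adjusted p = 2.7e-05) and shJarid2 (0.33 ± 0.09, adjusted p = 0.0081), and its change in shsuz12 was -0.17 ± 0.09, adjusted p = 0.15, a call gained without pLKO replicate 3 (adjusted p = 0.023). Counted by role, 2 of the 6 factors rose and 1 fell in shPALI1, 0 rose and 1 fell in shG9a, 4 rose and 0 fell in shJarid2, and 0 rose and 4 fell in shsuz12. Among all genes tested, 16.5% rose and 25.1% fell in shPALI1, and 18.4% and 24.7% in shG9a. In shJarid2 23.8% of all genes rose and 27.2% fell, and in shsuz12 21.1% and 32.8%. For the counts of 0, the number of factors at an unadjusted p under 0.05 in that direction was also 0 in shG9a, shJarid2 and shsuz12. The 0 rises in shG9a became 1 with a common sum, in the model over the 6 libraries and after correction for length and GC content (DDIT3), and after quantile normalization (ATF4).

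Of the 4 stress effectors, CHAC1, an enzyme that degrades glutathione, was called in each comparison, in both directions. CHAC1 was at 7.16, 7.5 and 8.08 RPKM in the shPALI1 libraries, 3.48, 3.29 and 3.18 in shG9a, 6.48, 6.32 and 8.65 in shJarid2, 1.75, 1.37 and 1.81 in shsuz12, against 4.51, 4.39 and 4.07 in pLKO. The shPALI1 and shJarid2 libraries lay above pLKO, and the shG9a and shsuz12 libraries below it. CHAC1 rose in shPALI1 (0.69 ± 0.10, adjusted p = 1.1e-04) and shJarid2 (0.60 ± 0.10, adjusted p = 2.1e-04). It fell to 38.1% of the pLKO mean in shsuz12 (-1.01 ± 0.10, adjusted p = 1.9e-06), and fell less in shG9a (-0.30 ± 0.10, adjusted p = 0.028), where the call was lost without shG9a replicate 2 or 3 or pLKO replicate 1 or 2 (adjusted p of 0.068 to 0.085). DDIT4 encodes REDD1, a brake on the growth kinase mTORC1. DDIT4 had 93.7, 84.5 and 83 RPKM in the shPALI1 libraries, 67.3, 61 and 59.5 in shG9a, 125, 114 and 151 in shJarid2, 72.2, 75.9 and 73.3 in shsuz12, against 134, 126 and 99.3 in pLKO. The shPALI1, shG9a and shsuz12 libraries were all below pLKO, and shJarid2 overlapped it. DDIT4 fell in shG9a (-0.92 ± 0.11, adjusted p = 2.1e-05), shsuz12 (-0.68 ± 0.11, adjusted p = 1.8e-04) and shPALI1 (-0.45 ± 0.11, adjusted p = 0.0061).

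The lipoprotein receptor gene VLDLR ran against most of the program in shsuz12. VLDLR measured 2.92, 3.56 and 2.89 RPKM in the shPALI1 libraries, 5.92, 6.71 and 6.01 in shG9a, 7.49, 6.58 and 5.35 in shJarid2, 7.2, 7.61 and 7.45 in shsuz12, against 4.63, 5.23 and 4.6 in pLKO. All 3 shPALI1 libraries were below pLKO, and the other hairpins were above it. VLDLR rose in shsuz12 (0.53 ± 0.10, adjusted p = 4.8e-04), shJarid2 (0.35 ± 0.10, adjusted p = 0.0093) and shG9a (0.31 ± 0.10, adjusted p = 0.023), and fell in shPALI1 (-0.50 ± 0.10, adjusted p = 0.0012). In shG9a the call was lost without shG9a replicate 2 or pLKO replicate 1 or 3 (adjusted p of 0.068 to 0.091), and in shJarid2 in the model over the 6 libraries (0.065). STC2, a secreted glycoprotein of calcium and phosphate handling, was steady in pLKO. STC2 was at 14.2, 15 and 14.2 RPKM in the shPALI1 libraries, 13.7, 14.2 and 12.2 in shG9a, 14.6, 11.8 and 12.3 in shJarid2, 7.29, 7.93 and 8.24 in shsuz12, against 15.4, 15.2 and 15.3 in pLKO. The shsuz12 libraries lay well below the rest. STC2 fell in shsuz12 (-0.89 ± 0.08, adjusted p = 5.2e-07) and in shJarid2 (-0.24 ± 0.08, adjusted p = 0.022), where the call was lost without shJarid2 replicate 2 or 3 or pLKO replicate 3 (adjusted p of 0.051 to 0.10) and after median ratio scaling (0.077).

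**Figure D2:**
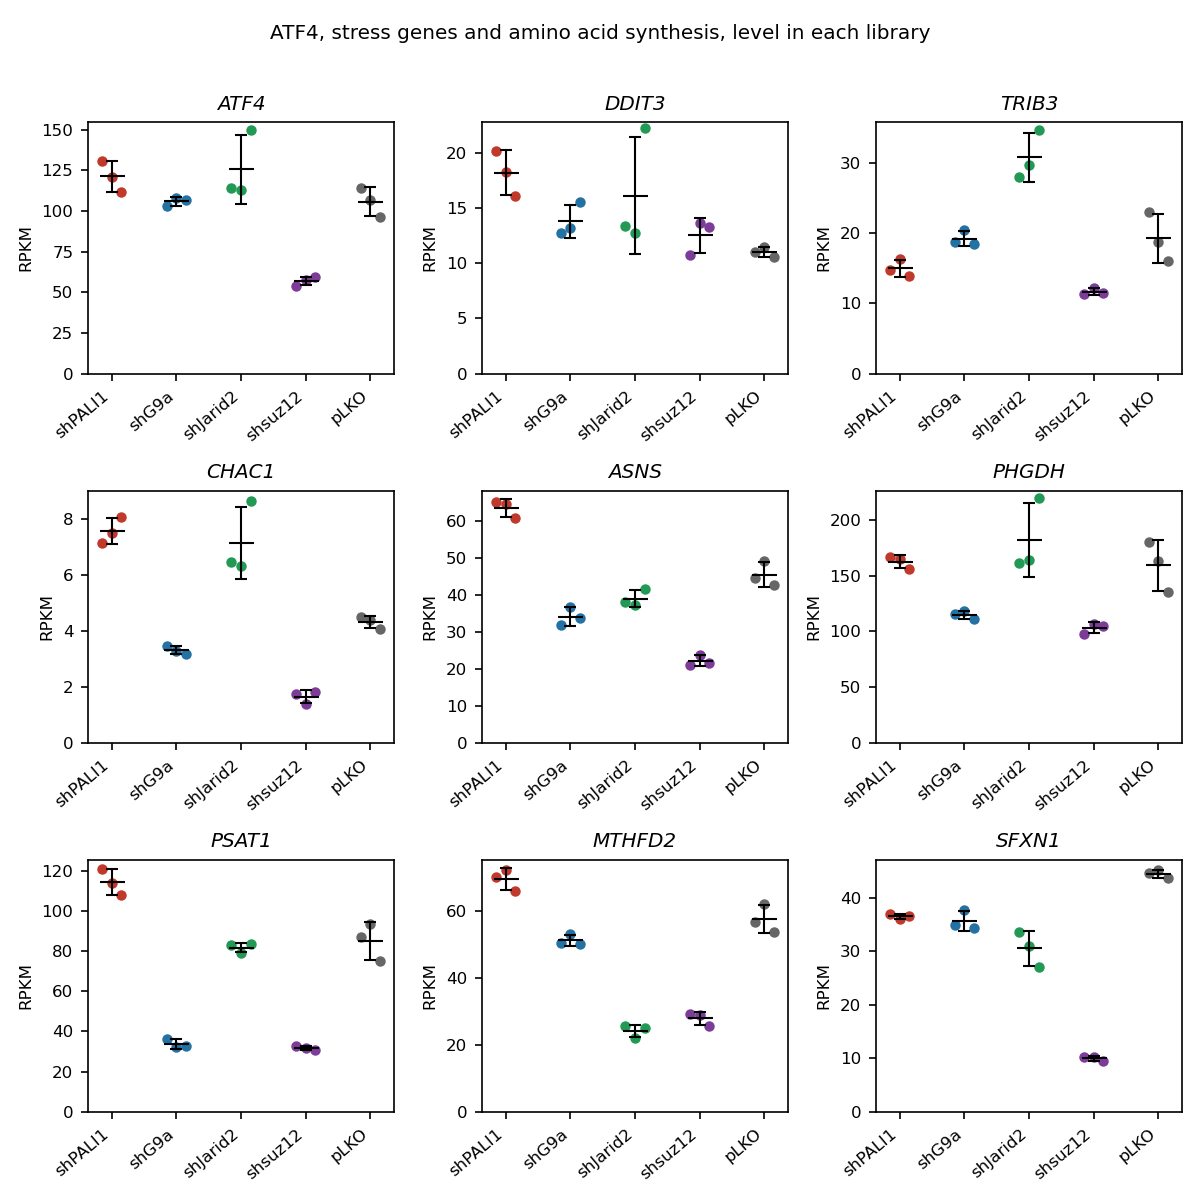
RPKM of 9 program genes in each library (points), with the mean and SD of the 3 libraries of a group (lines), for the 4 hairpin groups and pLKO. ATF4 is 54.2 to 59.3 RPKM in shsuz12, against 96.6 to 114 RPKM in pLKO, PSAT1 is low in both shG9a and shsuz12, and MTHFD2 is low in shJarid2 and shsuz12.

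Serine synthesis and mitochondrial one-carbon genes fell in shG9a and shsuz12. Of the 6 tested, 3 rose and 1 fell in shPALI1, 0 rose and 5 fell in shG9a, 1 rose and 2 fell in shJarid2, and 0 rose and 6 fell in shsuz12. Beside these counts, 16.5% of all genes rose and 25.1% fell in shPALI1, and 18.4% and 24.7% in shG9a. The shares were 23.8% and 27.2% in shJarid2, near which the counts lay, and 21.1% and 32.8% in shsuz12. In shG9a and shsuz12 no gene of this role was higher at an unadjusted p under 0.05 either. PHGDH catalyses the first step from a glycolytic intermediate to serine. PHGDH had 167, 165 and 156 RPKM in the shPALI1 libraries, 116, 118 and 111 in shG9a, 161, 164 and 220 in shJarid2, 97.6, 107 and 105 in shsuz12, against 180, 163 and 135 in pLKO. The shG9a and shsuz12 libraries lay below pLKO, where replicate 3 was the lowest, and the other hairpins overlapped it. PHGDH fell in shsuz12 (-0.61 ± 0.12, adjusted p = 5.0e-04) and shG9a (-0.46 ± 0.12, adjusted p = 0.0056), while its change was 0.04 ± 0.12, adjusted p = 0.82 in shPALI1 and 0.18 ± 0.12, adjusted p = 0.21 in shJarid2. PSAT1, the aminotransferase of the second step, moved more. PSAT1 measured 121, 114 and 108 RPKM in the shPALI1 libraries, 36.4, 32.1 and 32.6 in shG9a, 83, 79.1 and 83.4 in shJarid2, 32.8, 31.7 and 30.9 in shsuz12, against 87, 93.8 and 75.1 in pLKO. The shPALI1 libraries were above pLKO, the shG9a and shsuz12 libraries were all under 37 RPKM, and shJarid2 lay within the pLKO range. PSAT1 was at 37.2% of the pLKO mean in shsuz12 (-1.39 ± 0.08, adjusted p = 1.2e-08) and at 39.5% in shG9a (-1.31 ± 0.08, adjusted p = 2.9e-08). It rose in shPALI1 (0.42 ± 0.08, adjusted p = 8.3e-04).

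PSPH, the phosphatase of the last step, was called in both directions. PSPH was at 24.9, 23.8 and 25 RPKM in the shPALI1 libraries, 12.8, 12.8 and 11.7 in shG9a, 24.1, 20.9 and 25 in shJarid2, 11.8, 11 and 10.7 in shsuz12, against 19.8, 19.4 and 15.5 in pLKO. The shPALI1 and shJarid2 libraries were above pLKO, and the shG9a and shsuz12 libraries below it. PSPH rose in shPALI1 (0.42 ± 0.09, adjusted p = 0.0021) and shJarid2 (0.34 ± 0.09, adjusted p = 0.0057), and fell in shG9a (-0.51 ± 0.09, adjusted p = 4.2e-04) and shsuz12 (-0.65 ± 0.09, adjusted p = 3.4e-05). In the model over the 6 libraries of shJarid2 and pLKO alone, its adjusted p was 0.063. SHMT2, which splits serine in mitochondria to glycine and a one-carbon unit, averaged 74.2 ± 4.9 RPKM in shG9a and 78.2 ± 2.3 RPKM in shsuz12, against 122 ± 13.0 RPKM in pLKO (SD, n = 3 each). It fell in shG9a (-0.70 ± 0.10, adjusted p = 4.8e-05) and shsuz12 (-0.63 ± 0.10, adjusted p = 8.5e-05), and its changes in shPALI1 and shJarid2 were 0.03 and 0.01.

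MTHFD2, the mitochondrial folate dehydrogenase downstream of SHMT2, was lower in another pair of groups. MTHFD2 had 70.1, 72.4 and 66 RPKM in the shPALI1 libraries, 50.4, 53 and 50.3 in shG9a, 25.5, 22 and 25 in shJarid2, 29.2, 29 and 25.7 in shsuz12, against 56.8, 62 and 53.7 in pLKO. The shJarid2 and shsuz12 libraries were all under 30 RPKM, and the shPALI1 libraries lay above pLKO. MTHFD2 was at 41.9% of the pLKO mean in shJarid2 (-1.22 ± 0.08, adjusted p = 2.0e-08) and at 48.6% in shsuz12 (-1.01 ± 0.08, adjusted p = 1.1e-07). It rose in shPALI1 (0.27 ± 0.08, adjusted p = 0.011), and its change in shG9a was -0.16 ± 0.08, adjusted p = 0.10. Its exons share 1324 bases with SLC4A5 on the opposite strand. SFXN1, the carrier that brings serine into mitochondria, gave the largest fall of any member. SFXN1 measured 37, 36 and 36.5 RPKM in the shPALI1 libraries, 34.8, 37.7 and 34.4 in shG9a, 33.6, 30.9 and 27.1 in shJarid2, 10.2, 10.3 and 9.41 in shsuz12, against 44.5, 45.2 and 43.7 in pLKO. All 12 hairpin libraries lay below the 3 pLKO libraries, and those of shsuz12 were lowest. SFXN1 was at 22.4% of the pLKO mean in shsuz12 (-2.05 ± 0.07, adjusted p = 3.0e-10), with a change of -0.53 ± 0.07, adjusted p = 2.9e-05 in shJarid2, -0.31 ± 0.07, adjusted p = 0.0032 in shG9a and -0.28 ± 0.07, adjusted p = 0.0071 in shPALI1. The last 2 calls were lost after quantile normalization (adjusted p of 0.21 in shPALI1 and 0.096 in shG9a) and after rescaling to a common sum (0.062 in shPALI1 and 0.14 in shG9a).

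Among the other enzymes of amino acid synthesis, ASNS rose in shPALI1 and fell under the other hairpins, and ALDH18A1 rose, with calls in shJarid2 that depend on single libraries and on the scaling. ASNS makes asparagine and is a long-known ATF4 target, and its promoter holds the element shown above. ASNS was at 65.2, 64.6 and 60.9 RPKM in the shPALI1 libraries, 31.8, 36.8 and 33.8 in shG9a, 38, 37.3 and 41.6 in shJarid2, 21, 23.8 and 21.7 in shsuz12, against 44.5, 49.2 and 42.8 in pLKO. The shPALI1 libraries were above pLKO, and the libraries of the other hairpins below it. ASNS rose in shPALI1 (0.47 ± 0.08, adjusted p = 2.0e-04). It fell in shsuz12 to 48.6% of the pLKO mean (-1.01 ± 0.08, adjusted p = 1.1e-07), and fell in shG9a (-0.41 ± 0.08, adjusted p = 6.7e-04) and shJarid2 (-0.22 ± 0.08, adjusted p = 0.027). In shJarid2 the call was lost without shJarid2 replicate 1 or 2 or pLKO replicate 2 (adjusted p of 0.068 to 0.12), and median ratio scaling gave an adjusted p of 0.075. ALDH18A1, which turns glutamate into the precursor of proline and ornithine, had another pattern. ALDH18A1 had 51.1, 57.6 and 55.5 RPKM in the shPALI1 libraries, 50, 58.5 and 53.6 in shG9a, 45.2, 43.9 and 43.5 in shJarid2, 55.6, 59.3 and 55.7 in shsuz12, against 40, 40.2 and 36.4 in pLKO. The 12 hairpin libraries lay above the 3 pLKO libraries. Its change was 0.48 ± 0.07, adjusted p = 8.4e-05 in shPALI1, 0.46 ± 0.07, adjusted p = 1.1e-04 in shG9a, 0.18 ± 0.07, adjusted p = 0.04 in shJarid2 and 0.54 ± 0.07, adjusted p = 1.9e-05 in shsuz12. In shJarid2 the call was lost without shJarid2 replicate 1 or 2 or pLKO replicate 3 (adjusted p of 0.074 to 0.16), and likewise after quantile normalization (0.18) and with a common sum (0.11).

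GPT2, the mitochondrial alanine aminotransferase, was lower in 3 groups. GPT2 measured 31.7, 32.8 and 31.8 RPKM in the shPALI1 libraries, 18.2, 17.9 and 16.5 in shG9a, 23.3, 20.4 and 24.7 in shJarid2, 18.6, 18.4 and 18.9 in shsuz12, against 32.2, 30.2 and 26.1 in pLKO. The shG9a, shJarid2 and shsuz12 libraries lay below pLKO, and shPALI1 overlapped it. GPT2 fell in shG9a (-0.72 ± 0.08, adjusted p = 9.4e-06), shsuz12 (-0.63 ± 0.08, adjusted p = 1.8e-05) and shJarid2 (-0.36 ± 0.08, adjusted p = 0.0022). In shPALI1 GPT2 passed as higher after quantile normalization (adjusted p = 0.011) and after correction for length and GC content (0.046). CTH, which releases cysteine from cystathionine, was lower in the same 3 groups. CTH was at 7.21, 6.52 and 5.92 RPKM in the shPALI1 libraries, 3.57, 4.15 and 3.33 in shG9a, 3.1, 3.4 and 3.72 in shJarid2, 3.19, 2.35 and 1.86 in shsuz12, against 5.33, 6.31 and 4.93 in pLKO. Libraries of shPALI1 overlapped pLKO. CTH fell in shsuz12 (-0.92 ± 0.13, adjusted p = 3.5e-05), shJarid2 (-0.56 ± 0.13, adjusted p = 0.0022) and shG9a (-0.48 ± 0.13, adjusted p = 0.0082). PYCR1, the last enzyme of proline synthesis, fell in shG9a (-0.66 ± 0.12, adjusted p = 4.0e-04) and shsuz12 (-0.72 ± 0.12, adjusted p = 1.3e-04). CBS, the enzyme upstream of CTH, was low, at 1.46 ± 0.14 RPKM in pLKO (SD, n = 3), has a near-identical copy in the genome that makes its value uncertain, and fell in shsuz12 (-0.46 ± 0.10, adjusted p = 0.0018) and shG9a (-0.30 ± 0.10, adjusted p = 0.031). In shG9a the call was lost without shG9a replicate 1 or 2 or pLKO replicate 1 or 3 (adjusted p of 0.057 to 0.14). Of the 6 genes of this role, 2 rose and 0 fell in shPALI1, 1 rose and 5 fell in shG9a, 1 rose and 3 fell in shJarid2, and 1 rose and 5 fell in shsuz12. The shares of all genes that rose and fell were 16.5% and 25.1% in shPALI1 and 18.4% and 24.7% in shG9a. They were 23.8% and 27.2% in shJarid2 and 21.1% and 32.8% in shsuz12. In shPALI1, 0 of the 6 were lower at an unadjusted p under 0.05.

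**Figure D3:**
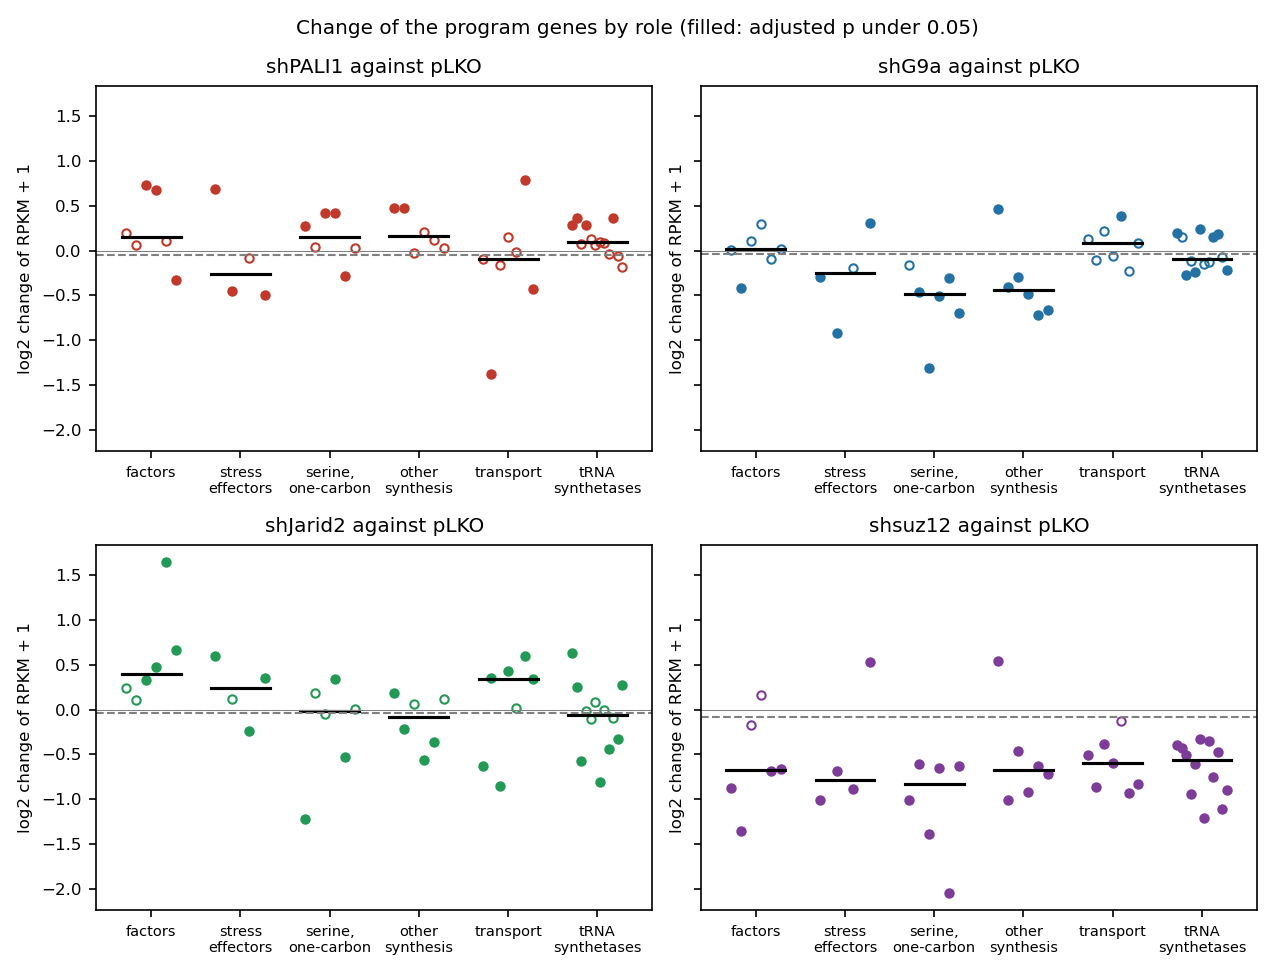
Change of each program gene on the log2(RPKM + 1) scale by role (points; filled where the adjusted p in limma was under 0.05), with the median of the role (bar) and the median of all genes tested (dashed line), in 1 panel per hairpin against pLKO. In shsuz12 the medians of the roles lie between -0.83 and -0.56, and in shG9a the 2 roles of synthesis lie at -0.49 and -0.44 while transport lies at 0.08.

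The amino acid transporters were lower in shsuz12 and mostly higher in shJarid2. Of the 7, 1 rose and 2 fell in shPALI1, 1 rose and 0 fell in shG9a, 4 rose and 2 fell in shJarid2, and 0 rose and 6 fell in shsuz12. The counts in shPALI1 lay near the shares of all genes, of which 16.5% rose and 25.1% fell there. Those shares were 18.4% and 24.7% in shG9a, 23.8% and 27.2% in shJarid2, and 21.1% and 32.8% in shsuz12. At an unadjusted p under 0.05, 0 transporters were lower in shG9a and 0 higher in shsuz12. The 0 falls in shG9a became 1, that of SLC7A11, in the model over the 6 libraries and after correction for length and GC content. SLC7A11 imports cystine for glutathione synthesis in exchange for glutamate. SLC7A11 had 22.1, 23.7 and 23.6 RPKM in the shPALI1 libraries, 10.9, 11 and 10.7 in shG9a, 24.6, 22.5 and 14.7 in shJarid2, 6.79, 6.15 and 6.04 in shsuz12, against 12.1, 14 and 12.9 in pLKO. The shPALI1 and shJarid2 libraries were above pLKO, although shJarid2 replicate 3 was only just so, and the shsuz12 libraries were below all others. SLC7A11 was at 178% of the pLKO mean in shPALI1 (0.79 ± 0.13, adjusted p = 3.1e-04) and at 48.7% in shsuz12 (-0.93 ± 0.13, adjusted p = 4.5e-05). It rose in shJarid2 (0.60 ± 0.13, adjusted p = 0.0018), with a change of 0.82 without shJarid2 replicate 3 (adjusted p = 5.6e-07). In shG9a its libraries lay below pLKO, with a change of -0.23 ± 0.13, adjusted p = 0.17. The fall passed there in the model over the 6 libraries (adjusted p = 0.022) and after correction for length and GC content (0.0019).

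SLC7A5, the large neutral amino acid transporter LAT1, was low in these cells. SLC7A5 measured 1.4, 2.08 and 1.65 RPKM in the shPALI1 libraries, 2.72, 2.8 and 2.99 in shG9a, 3.42, 3.59 and 3.82 in shJarid2, 0.887, 1.16 and 1.1 in shsuz12, against 3.05, 2.68 and 2.23 in pLKO. The shJarid2 libraries were highest, and the shPALI1 and shsuz12 libraries lay below pLKO. SLC7A5 fell in shsuz12 (-0.83 ± 0.11, adjusted p = 1.5e-05) and in shPALI1 (-0.43 ± 0.11, adjusted p = 0.0046). It rose in shJarid2 (0.34 ± 0.11, adjusted p = 0.014), where the call was lost without pLKO replicate 3 (adjusted p of 0.074). Both transporters work as dimers with the heavy chain SLC3A2, whose promoter window is shown above. SLC3A2 averaged 56.2 ± 3.5 RPKM in shPALI1, 48.5 ± 2.5 in shG9a, 69.4 ± 13.0 in shJarid2 and 33.3 ± 3.7 in shsuz12, against 50.7 ± 1.8 RPKM in pLKO (SD, n = 3 each). It rose in shJarid2 (0.43 ± 0.11, adjusted p = 0.0047) and fell in shsuz12 (-0.60 ± 0.11, adjusted p = 4.2e-04). In shPALI1 SLC3A2 passed as higher after quantile normalization (adjusted p = 0.0076) and after correction for length and GC content (0.014).

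SLC1A5, the glutamine transporter ASCT2, had the largest fall of any member in shPALI1. SLC1A5 was at 17.3, 17.4 and 15.2 RPKM in the shPALI1 libraries, 38.1, 43.6 and 42 in shG9a, 51.6, 56.4 and 63.7 in shJarid2, 22.3, 25.6 and 24.8 in shsuz12, against 48.6, 45 and 40.7 in pLKO. The shPALI1 libraries were the lowest, those of shsuz12 next, and those of shJarid2 the highest, with shG9a overlapping pLKO. SLC1A5 was at 37.1% of the pLKO mean in shPALI1 (-1.38 ± 0.09, adjusted p = 6.1e-08) and at 54.1% in shsuz12 (-0.86 ± 0.09, adjusted p = 3.5e-06), and rose in shJarid2 (0.35 ± 0.09, adjusted p = 0.0065). Its relative SLC1A4, or ASCT1, which carries serine and alanine, stood at 1.65 ± 0.43 RPKM in shJarid2 and 1.86 ± 0.28 RPKM in shsuz12, against 3.06 ± 0.3 RPKM in pLKO (SD, n = 3 each). SLC1A4 fell in shJarid2 (-0.63 ± 0.13, adjusted p = 0.0011) and shsuz12 (-0.51 ± 0.13, adjusted p = 0.0046).

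SLC38A2, a sodium-coupled carrier of small neutral amino acids known to be induced when they run short, was lowest in shJarid2. SLC38A2 had 54.4, 58.5 and 57.9 RPKM in the shPALI1 libraries, 70.3, 76 and 77.5 in shG9a, 40.5, 35.5 and 29.3 in shJarid2, 52, 49.6 and 44.7 in shsuz12, against 57.4, 65.3 and 68.8 in pLKO. Those of shJarid2 lay below all 12 other libraries. SLC38A2 fell in shJarid2 (-0.85 ± 0.10, adjusted p = 1.1e-05) and shsuz12 (-0.38 ± 0.10, adjusted p = 0.0066). The second call was lost after quantile normalization (adjusted p = 0.24) and after rescaling to a common sum (0.16). The shG9a libraries lay above pLKO, with a change of 0.22 ± 0.10, adjusted p = 0.096. After correction for length and GC content SLC38A2 passed as higher in shG9a (0.0061) and as lower in shPALI1 (0.011). SLC7A1 carries arginine and lysine. SLC7A1 measured 18.8, 22.8 and 22.4 RPKM in the shPALI1 libraries, 27.5, 30.2 and 28 in shG9a, 26, 24 and 16.8 in shJarid2, 20.4, 19.6 and 19 in shsuz12, against 22.1, 22.3 and 20.3 in pLKO. The shG9a libraries were above pLKO, and the libraries of the other hairpins overlapped it. SLC7A1 rose in shG9a (0.39 ± 0.12, adjusted p = 0.02), where the call was lost without shG9a replicate 2 or pLKO replicate 3 (adjusted p of 0.067 to 0.071). In shJarid2 its change was 0.02 ± 0.12, adjusted p = 0.89, and 0.21 without shJarid2 replicate 3 (adjusted p = 0.045). In shsuz12 SLC7A1 had a change of -0.13 ± 0.12, adjusted p = 0.41. After correction for length and GC content it passed there as lower (-0.27, adjusted p = 0.013).

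**Figure D4:**
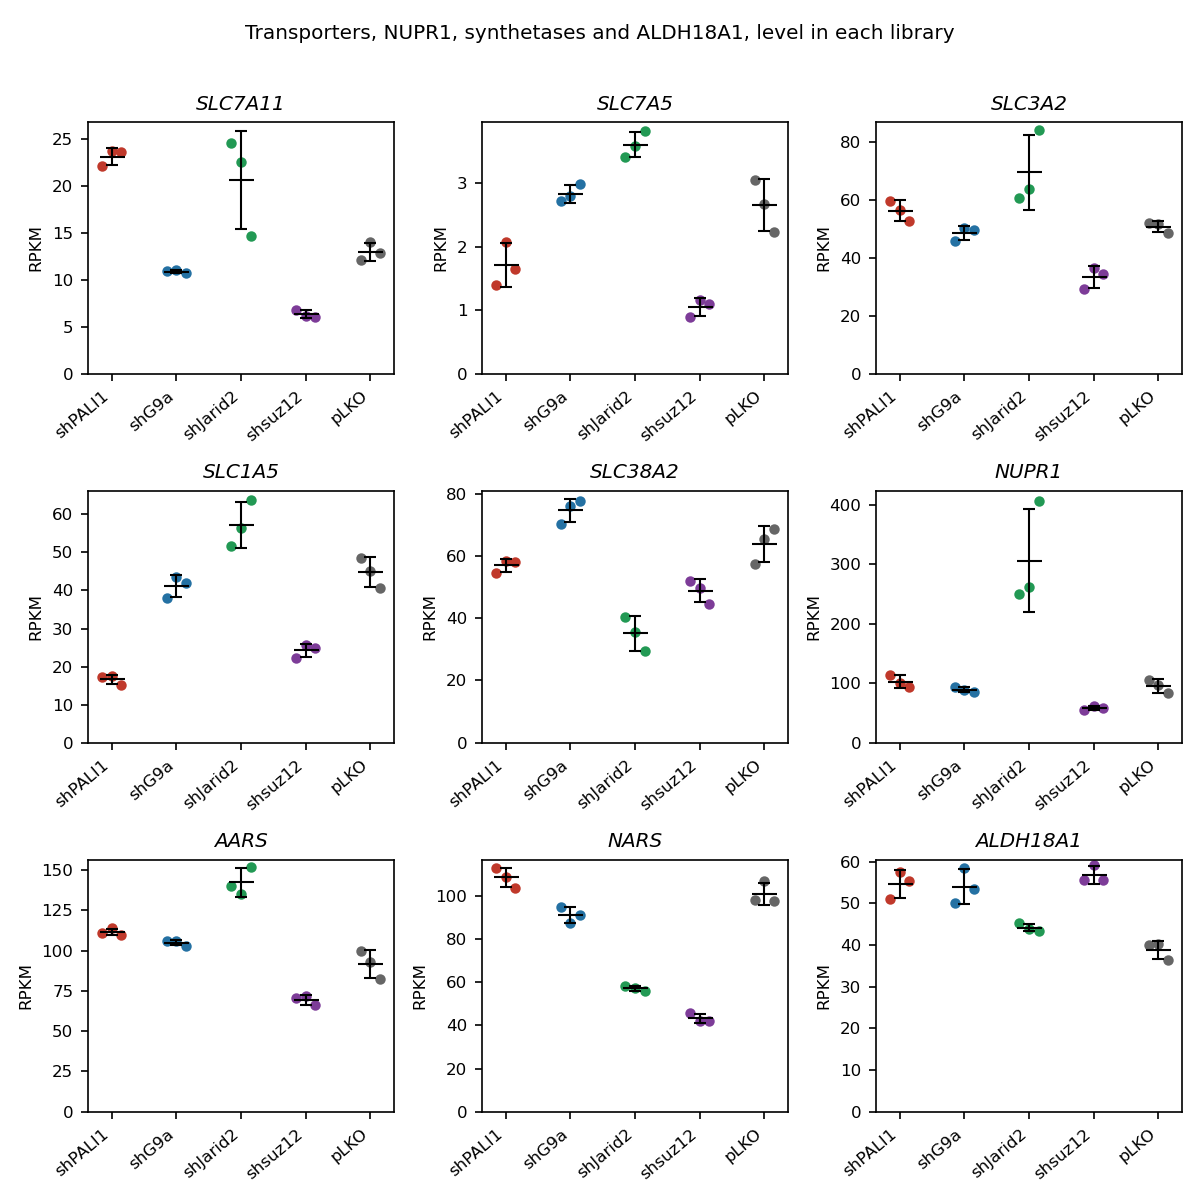
RPKM in each library (points), with the mean and SD of the 3 libraries of a group (lines), for 5 transporter genes, NUPR1, 2 tRNA synthetases and ALDH18A1 in the 4 hairpin groups and pLKO. SLC1A5 is 15.2 to 17.4 RPKM in shPALI1, against 40.7 to 48.6 RPKM in pLKO, and ALDH18A1 is above pLKO under each hairpin.

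All 11 tRNA synthetases of the program and XPOT, the exportin that carries tRNA out of the nucleus, fell in shsuz12. Of these 12, 4 rose and 0 fell in shPALI1, 4 rose and 3 fell in shG9a, 3 rose and 4 fell in shJarid2, and 0 rose and 12 fell in shsuz12. Over all genes, 16.5% rose and 25.1% fell in shPALI1, and 18.4% and 24.7% in shG9a. The same shares were 23.8% and 27.2% in shJarid2 and 21.1% and 32.8% in shsuz12. In shG9a the 4 rises became 1 or 2 whichever library of that comparison was left out, and the 3 falls became 1 without pLKO replicate 2 or shG9a replicate 2 or 3, and 0 after rescaling to a common sum or quantile normalization. After correction for length and GC content, 3 rose and 6 fell there, with falls of SARS (adjusted p = 0.048), NARS (0.034) and GARS (0.046) gained. At an unadjusted p under 0.05, 1 of the 12 was lower in shPALI1 and 0 higher in shsuz12. NARS, which charges tRNA with asparagine and whose promoter window is shown above, fell the most. NARS was at 113, 109 and 104 RPKM in the shPALI1 libraries, 95.1, 87.4 and 91.1 in shG9a, 58.2, 57.5 and 55.9 in shJarid2, 45.7, 42.2 and 41.9 in shsuz12, against 98.4, 107 and 97.6 in pLKO. The shJarid2 and shsuz12 libraries lay far below the other 9. NARS was at 42.8% of the pLKO mean in shsuz12 (-1.21 ± 0.06, adjusted p = 5.9e-09) and at 56.6% in shJarid2 (-0.81 ± 0.06, adjusted p = 1.4e-07). XPOT was at 45.4% in shsuz12 (-1.11 ± 0.10, adjusted p = 4.0e-07), and fell in shJarid2 (-0.33 ± 0.10, adjusted p = 0.01), where the call was lost without pLKO replicate 2 (adjusted p of 0.051). GARS, the glycine enzyme, was at 51.5% in shsuz12 (-0.94 ± 0.06, adjusted p = 3.3e-08) and rose in shPALI1 (0.28 ± 0.06, adjusted p = 0.0022). The smallest fall in shsuz12 was that of MARS (-0.33 ± 0.06, adjusted p = 4.6e-04).

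AARS, the alanine enzyme, moved against NARS in shJarid2. AARS had 111, 114 and 110 RPKM in the shPALI1 libraries, 106, 106 and 103 in shG9a, 140, 135 and 152 in shJarid2, 70.8, 71.8 and 66 in shsuz12, against 99.9, 93 and 82.5 in pLKO. The shJarid2 libraries were the highest and the shsuz12 libraries the lowest. AARS rose in shJarid2 (0.63 ± 0.07, adjusted p = 7.4e-06) and shPALI1 (0.28 ± 0.07, adjusted p = 0.0067), and fell in shsuz12 (-0.39 ± 0.07, adjusted p = 4.3e-04). It was also higher in shG9a (0.20 ± 0.07, adjusted p = 0.041), where the call was lost without shG9a replicate 1, 2 or 3 or pLKO replicate 2 or 3 (adjusted p of 0.069 to 0.18). CARS, the cysteine enzyme, and WARS, the tryptophan enzyme, had the largest rises of this role in shPALI1. CARS measured 12.6, 13.2 and 11.9 RPKM in the shPALI1 libraries, 9.82, 10.8 and 11.6 in shG9a, 10.6, 11.4 and 12.7 in shJarid2, 6.71, 6.49 and 7.36 in shsuz12, against 9.96, 9.5 and 9.15 in pLKO. WARS was at 34.1, 31.6 and 30.5 RPKM in the shPALI1 libraries, 29.1, 27.7 and 27.4 in shG9a, 22.1, 22.9 and 24.4 in shJarid2, 18.3, 18.3 and 16.1 in shsuz12, against 24.8, 24.2 and 25.1 in pLKO. For both, the shPALI1 libraries lay above pLKO and the shsuz12 libraries below it. CARS rose in shPALI1 (0.36 ± 0.08, adjusted p = 0.0022) and shJarid2 (0.25 ± 0.08, adjusted p = 0.017), and in the second the call was lost without shJarid2 replicate 3 or pLKO replicate 3 (adjusted p of 0.056 to 0.06). WARS rose in shPALI1 (0.36 ± 0.07, adjusted p = 5.8e-04) and shG9a (0.18 ± 0.07, adjusted p = 0.042), and in the second the call was lost without shG9a replicate 1, 2 or 3 or pLKO replicate 1, 2 or 3 (adjusted p of 0.065 to 0.14).

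The largest rise and fall of this role in shG9a were small. MARS had 61, 57.4 and 60.6 RPKM in the shPALI1 libraries, 65.6, 69.4 and 68.3 in shG9a, 59.1, 57.3 and 65.7 in shJarid2, 44.2, 46 and 45.4 in shsuz12, against 60.3, 55.9 and 55.7 in pLKO. MARS, the methionine enzyme, was above pLKO in all 3 shG9a libraries and rose there (0.24 ± 0.06, adjusted p = 0.0072). EPRS measured 88, 88.9 and 91.1 RPKM in the shPALI1 libraries, 73.3, 69.2 and 68.5 in shG9a, 61.1, 57.4 and 53.3 in shJarid2, 64.7, 57.8 and 56.1 in shsuz12, against 83.9, 87.6 and 84.1 in pLKO. EPRS, the bifunctional glutamate and proline enzyme, lay below pLKO in shG9a, shJarid2 and shsuz12. EPRS fell in shG9a (-0.27 ± 0.07, adjusted p = 0.0048), shJarid2 (-0.57 ± 0.07, adjusted p = 9.2e-06) and shsuz12 (-0.51 ± 0.07, adjusted p = 2.3e-05). Its call in shG9a was lost after quantile normalization (adjusted p = 0.16) and after a common sum was set (0.21). TARS, the threonine enzyme, fell in shJarid2 (-0.44 ± 0.06, adjusted p = 1.8e-05) and was higher in shG9a (0.15 ± 0.06, adjusted p = 0.044), where the call was lost without shG9a replicate 1, 2 or 3 or pLKO replicate 1, 2 or 3 (adjusted p of 0.052 to 0.14). YARS, the tyrosine enzyme, rose in shJarid2 (0.27 ± 0.07, adjusted p = 0.0082, and 0.087 in the model over the 6 libraries) and was lower in shG9a (-0.22 ± 0.07, adjusted p = 0.029), where the call was lost without shG9a replicate 2 or 3 or pLKO replicate 1 or 2 (adjusted p of 0.087 to 0.11). In shPALI1 YARS had a change of -0.18 ± 0.07, adjusted p = 0.069 and passed without pLKO replicate 3 (0.015). IARS, the isoleucine enzyme, was lower in shG9a (-0.24 ± 0.08, adjusted p = 0.028), where the call was lost without shG9a replicate 2 or 3 or pLKO replicate 2 or 3 (adjusted p of 0.061 to 0.11) and after median ratio scaling (0.063). SARS, the serine enzyme, was called in shsuz12 alone (-0.35 ± 0.07, adjusted p = 0.0011), apart from shPALI1 after quantile normalization (0.0028) and shG9a after correction for length and GC content (0.048).

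Other genes of tRNA charging were read beside these 12. Of 12 other cytosolic synthetase and scaffold genes, 2 rose and 2 fell in shPALI1, 2 rose and 5 fell in shG9a, 3 rose and 5 fell in shJarid2, and 1 rose and 8 fell in shsuz12. Of 17 mitochondrial synthetases, 1 rose and 6 fell in shPALI1, and 0 rose and 5 fell in each of shG9a, shJarid2 and shsuz12, with 0, 0 and 0 higher at an unadjusted p under 0.05. The 5 falls lay near the shares of all genes that fell, 24.7% in shG9a, 27.2% in shJarid2 and 32.8% in shsuz12, with 25.1% in shPALI1. The shares that rose were 16.5% in shPALI1, 18.4% in shG9a, 23.8% in shJarid2 and 21.1% in shsuz12. The median change in shsuz12 was -0.56 for the 12 program genes, -0.25 for the other cytosolic genes and -0.12 for the mitochondrial genes. FARSB, a subunit of the phenylalanine enzyme, averaged 21.6 RPKM in shsuz12 and 39 RPKM in pLKO and fell in shsuz12 (-0.82 ± 0.06, adjusted p = 1.1e-07), shJarid2 (-0.77 ± 0.06, adjusted p = 2.1e-07) and shG9a (-0.51 ± 0.06, adjusted p = 1.6e-05). MARS2, the mitochondrial methionine enzyme, averaged 8.76 RPKM in shsuz12 and 19.4 RPKM in pLKO and fell there too (-1.06 ± 0.06, adjusted p = 1.4e-08), and in shPALI1 (-0.73 ± 0.06, adjusted p = 6.8e-07) and shJarid2 (-0.72 ± 0.06, adjusted p = 4.9e-07).

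**Figure D5:**
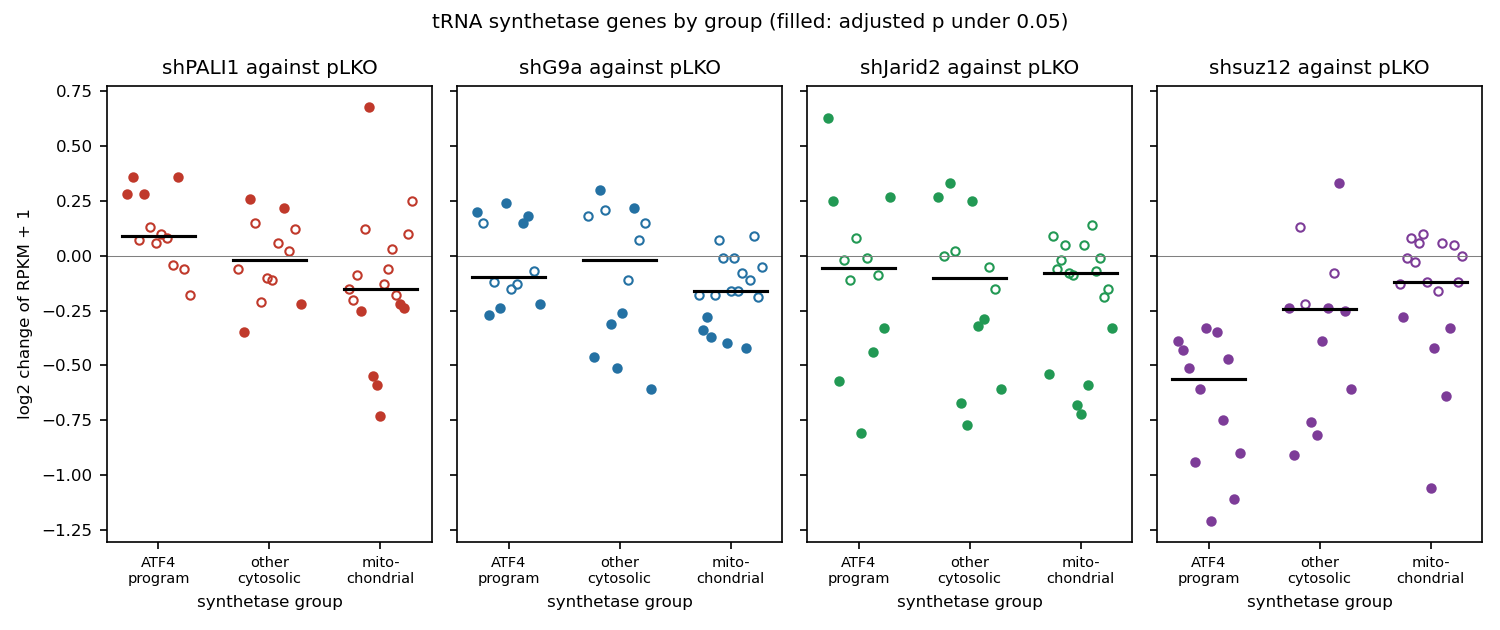
Change on the log2(RPKM + 1) scale of the 12 program genes of tRNA charging and export, 12 other cytosolic synthetase and scaffold genes and 17 mitochondrial synthetases (points; filled where the adjusted p in limma was under 0.05), with the median of each set (bar), in 1 panel per hairpin against pLKO. In shsuz12 all 12 program genes are filled and below 0, with a median of -0.56, against -0.25 and -0.12 for the other sets.

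The hairpins were also compared with each other directly, with each difference given with its SE and then its adjusted p. Against shsuz12, shPALI1 had 35 members higher and 2 lower, where 30.9% of all genes were higher and 25.0% lower. The smallest p among the higher ones were those of SFXN1 (1.78 ± 0.07, 3.0e-10), PSAT1 (1.81 ± 0.08, 6.9e-10), NARS (1.31 ± 0.06, 1.2e-09) and GARS (1.22 ± 0.06, 1.8e-09). The 2 lower ones were VLDLR (-1.03 ± 0.10, 1.0e-06) and SLC1A5 (-0.52 ± 0.09, 2.9e-04). Against shsuz12, shG9a had 30 members higher and 0 lower, where 25.8% of all genes were higher and 19.8% lower. At an unadjusted p under 0.05, 1 member, VLDLR, was lower in limma, and 1 to 3 members were lower at an adjusted p under 0.05 with other scalings. SFXN1 (1.74 ± 0.07, 5.9e-10), NARS (1.06 ± 0.06, 1.5e-08), TARS (0.90 ± 0.06, 2.9e-08) and GARS (0.82 ± 0.06, 1.3e-07) led the higher ones, while PSAT1, low in both groups, differed by 0.08 ± 0.08, 0.45. Against shJarid2, shsuz12 had 3 members higher and 33 lower, where 25.2% of all genes were higher and 33.8% lower. The 3 higher ones were ALDH18A1 (0.35 ± 0.07, 5.9e-04), SLC38A2 (0.47 ± 0.10, 0.0013) and MTHFD2 (0.21 ± 0.08, 0.031). NUPR1 (-2.33 ± 0.15, 1.6e-08), CHAC1 (-1.62 ± 0.10, 1.4e-08), SFXN1 (-1.52 ± 0.07, 9.5e-10) and PSAT1 (-1.34 ± 0.08, 8.9e-09) were the lower ones with the smallest p.

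Between shPALI1 and shG9a, 22 members were higher and 8 lower in shPALI1, where 24.1% of all genes were higher and 24.1% lower. PSAT1 (1.73 ± 0.08, 9.1e-10), ASNS (0.88 ± 0.08, 3.7e-07), PSPH (0.93 ± 0.09, 1.3e-06) and GPT2 (0.84 ± 0.08, 1.3e-06) were higher in shPALI1 with the smallest p. SLC1A5 (-1.26 ± 0.09, 8.0e-08), VLDLR (-0.81 ± 0.10, 1.4e-05), SLC7A5 (-0.51 ± 0.11, 0.0011) and SLC38A2 (-0.38 ± 0.10, 0.0071) were lower. Between shPALI1 and shJarid2, 17 members were higher and 9 lower in shPALI1, where 30.5% of all genes were higher and 31.8% lower. MTHFD2 (1.49 ± 0.08, 1.0e-09), NARS (0.91 ± 0.06, 1.9e-08), ASNS (0.69 ± 0.08, 2.3e-06) and EPRS (0.64 ± 0.07, 1.8e-06) were higher in shPALI1, and SLC1A5 (-1.72 ± 0.09, 1.8e-09), NUPR1 (-1.53 ± 0.15, 7.3e-07), TRIB3 (-0.99 ± 0.11, 2.9e-06) and VLDLR (-0.85 ± 0.10, 5.0e-06) lower. Between shG9a and shJarid2, 12 members were higher and 19 lower in shG9a, where 27.2% of all genes were higher and 28.6% lower. MTHFD2 (1.06 ± 0.08, 5.8e-08), SLC38A2 (1.08 ± 0.10, 9.8e-07), NARS (0.66 ± 0.06, 8.1e-07) and TARS (0.60 ± 0.06, 9.6e-07) were higher in shG9a. NUPR1 (-1.73 ± 0.15, 3.5e-07), PSAT1 (-1.26 ± 0.08, 1.9e-08), DDIT4 (-1.03 ± 0.11, 3.7e-06) and PSPH (-0.85 ± 0.09, 2.5e-06) were lower in shG9a. By group mean, shsuz12 was the lowest of the 5 groups for 30 of the 41 members and shPALI1 the highest for 18. This ranking was not made for all genes tested, whose median change against pLKO was also the lowest in shsuz12 (-0.078).

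The 10 members whose promoters hold the composite element were set beside the 24 with a promoter but no match. Of all genes, with or without the element, 16.5% rose and 25.1% fell in shPALI1, and 18.4% and 24.7% in shG9a. These shares were 23.8% and 27.2% in shJarid2 and 21.1% and 32.8% in shsuz12. In shPALI1, 4 of the 10 rose and 0 fell, with 0 lower at an unadjusted p under 0.05, while 7 of the 24 rose and 6 fell. In shG9a, 4 of the 10 rose and 3 fell, and 3 of the 24 rose and 8 fell. Of the 10, only 1 rose in shG9a without pLKO replicate 3 and 1 without shG9a replicate 2, with SLC7A1, AARS and TARS lost, and only 1 fell without pLKO replicate 2 or shG9a replicate 2 or 3, with CHAC1 and IARS lost. Of the 24, the rises in shG9a numbered 1 or 2 with any library left out, and the falls 5 after rescaling to a common sum. In shJarid2, 4 of the 10 rose and 3 fell, and 7 of the 24 rose and 8 fell, with 4 of the 24 higher without pLKO replicate 3. In shsuz12, 0 of the 10 rose and 9 fell, with 0 higher at an unadjusted p under 0.05, and 2 of the 24 rose and 20 fell. The median change in shsuz12 was -0.60 with the element and -0.67 without it, and no difference between these sets was tested.

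Genes of the wider stress response outside the 42 moved otherwise in places. Of 16 other targets of ATF4 and CHOP tested, 9 rose and 2 fell in shPALI1, 5 rose and 3 fell in shG9a, 9 rose and 3 fell in shJarid2, and 5 rose and 3 fell in shsuz12. For all genes the shares that rose and fell were 16.5% and 25.1% in shPALI1 and 18.4% and 24.7% in shG9a. In shJarid2 they were 23.8% and 27.2%, and in shsuz12 21.1% and 32.8%. ATF3, a stress-induced factor, averaged 29.4 RPKM in shPALI1 and 7.51 RPKM in pLKO and rose in shPALI1 (1.83 ± 0.09, adjusted p = 2.1e-09), and also in shG9a (0.78 ± 0.09, adjusted p = 7.4e-06). HMOX1, which degrades heme, averaged 24.9 RPKM in shPALI1 and 4.37 RPKM in pLKO and rose there as well (2.26 ± 0.13, adjusted p = 1.2e-08). HMOX1 rose in the other groups too, by 0.46 in shG9a (adjusted p = 0.012), 1.43 in shJarid2 (7.0e-07) and 0.83 in shsuz12 (1.0e-04). In shsuz12, where most of the program fell, the death receptor gene TNFRSF10B averaged 92.2 RPKM in shsuz12 and 47.8 RPKM in pLKO and rose (0.93 ± 0.06, adjusted p = 5.0e-08), as it did in shPALI1 (0.32), shG9a (0.50) and shJarid2 (0.23). EIF4EBP1, a repressor of cap-dependent translation, and SQSTM1, an autophagy receptor, fell in shsuz12 to 49.3% (adjusted p = 3.6e-05) and 52.2% (adjusted p = 4.2e-07) of the pLKO mean. In shJarid2 SQSTM1 rose, with an average of 280 RPKM, against 136 RPKM in pLKO. FAM129A averaged 2.81 RPKM in shsuz12 and 1.26 RPKM in pLKO and rose in shsuz12. SESN2, a leucine-binding brake on mTORC1, averaged 9.15 RPKM in shG9a and 14.2 RPKM in pLKO and fell in shG9a (-0.59 ± 0.05, adjusted p = 1.6e-06) and shJarid2 (-0.29 ± 0.05, adjusted p = 5.6e-04), but rose in shPALI1 (0.40 ± 0.05, adjusted p = 5.0e-05) and shsuz12 (0.34 ± 0.05, adjusted p = 1.2e-04).

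Of 16 genes for the eIF2 kinases and the control of eIF2, 1 rose and 7 fell in shPALI1, 2 rose and 6 fell in shG9a, 5 rose and 5 fell in shJarid2, and 1 rose and 12 fell in shsuz12. Set beside both lists of this paragraph, 16.5% of all genes rose and 25.1% fell in shPALI1, and 18.4% and 24.7% in shG9a. The shares were 23.8% and 27.2% in shJarid2, and 21.1% and 32.8% in shsuz12. EIF2AK3, the endoplasmic reticulum kinase PERK, averaged 3.58 RPKM in pLKO. It rose in shG9a (1.01 ± 0.08, adjusted p = 3.7e-07), shJarid2 (0.93 ± 0.08, adjusted p = 5.1e-07), shsuz12 (0.80 ± 0.08, adjusted p = 2.0e-06) and shPALI1 (0.35 ± 0.08, adjusted p = 0.0033). EIF2B5, the catalytic subunit of the exchange factor of eIF2, fell in shPALI1 (-0.69 ± 0.06, adjusted p = 1.4e-06), shJarid2 (-0.68 ± 0.06, adjusted p = 9.0e-07) and shsuz12 (-0.20 ± 0.06, adjusted p = 0.017). Of 14 endoplasmic reticulum chaperone and unfolded protein response genes, 1 rose and 5 fell in shPALI1, 7 rose and 1 fell in shG9a, 4 rose and 5 fell in shJarid2, and 5 rose and 4 fell in shsuz12. DNAJB9, a co-chaperone of that response, averaged 18.5 RPKM in shJarid2 and 6.93 RPKM in pLKO and rose in shJarid2 (1.30 ± 0.09, adjusted p = 3.5e-08), and also in shG9a (0.51 ± 0.09, adjusted p = 3.2e-04) and shsuz12 (0.45 ± 0.09, adjusted p = 5.1e-04). Other genes of this list fell. MANF averaged 40.4 RPKM in shJarid2, against 103 RPKM in pLKO, and HSPA5 averaged 138 RPKM in shG9a, against 183 RPKM in pLKO. In shPALI1 HERPUD1 (27.9 RPKM, against 46.3 in pLKO) and CALR (295 RPKM, against 508 in pLKO) fell.

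Of 14 other amino acid transporters tested, 3 rose and 6 fell in shPALI1, 7 rose and 2 fell in shG9a, 3 rose and 2 fell in shJarid2, and 6 rose and 4 fell in shsuz12. For these and the next list, the shares of all genes that rose and fell were 16.5% and 25.1% in shPALI1. They were 18.4% and 24.7% in shG9a, 23.8% and 27.2% in shJarid2, and 21.1% and 32.8% in shsuz12. SLC6A9, a glycine transporter, averaged 7.68 RPKM in shG9a and 1.99 RPKM in pLKO and rose in shG9a (1.54 ± 0.09, adjusted p = 1.5e-08), and it also rose in shPALI1 (1.34 ± 0.09, adjusted p = 3.8e-08) and shJarid2 (0.65 ± 0.09, adjusted p = 2.6e-05). Of 10 other one-carbon and serine genes, 3 rose and 3 fell in shPALI1, 2 rose and 4 fell in shG9a, 0 rose and 5 fell in shJarid2, with 1 higher at an unadjusted p under 0.05, and 2 rose and 4 fell in shsuz12. MTHFD1L, which follows MTHFD2 in the mitochondrial folate pathway, averaged 3.07 RPKM in shsuz12 and 10.6 RPKM in pLKO and fell in shsuz12 (-1.52 ± 0.10, adjusted p = 2.5e-08), shJarid2 (-1.13 ± 0.10, adjusted p = 3.5e-07), shG9a (-0.68 ± 0.10, adjusted p = 6.6e-05) and shPALI1 (-0.28 ± 0.10, adjusted p = 0.029). SLC25A32 rose in shPALI1 (7.75 RPKM, against 3.82 in pLKO) and shG9a (6.3 RPKM). AMT rose in shPALI1 (1.67 RPKM, against 0.864 in pLKO) and shsuz12 (1.78 RPKM).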

How the data were processed

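RNA-seq had been done on 15 LNCaP libraries, 3 in each of 5 groups, which were taken from the sample labels. The authors deposited a single table of RPKM values. STAR and hg38 are named in the submitters' processing notes, while the STAR version, the read counter, its use of strand and the annotation were not given in the sources used here. Of 26475 names listed, 26443 carried values. Columns summed to between 250161 and 318754 RPKM and so had no common total. Depth was inferred from 1-read steps in short RNA genes, where 92.8% to 94.7% of values under 50 reads came within 0.05 of a whole read number, and it entered no test.

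All differences come from limma 3.58.1 (R 4.3.3), fitted once to the 15 libraries on log2(RPKM + 1) with a mean-variance trend and two-sided moderated tests. The 12715 genes that reached 1 RPKM in 3 or more libraries entered, p-values were adjusted by Benjamini-Hochberg per comparison, and 0.05 was the threshold. The procedure was tested on simulated data. The members and gene lists were chosen with earlier results of these data known. Values in every library are given for ATF4, ASNS, DDIT3, TRIB3, CHAC1, PHGDH, PSAT1, SLC7A11 and SLC7A5 and, per role and comparison with pLKO, for the members with the largest rise and fall that passed. Up to 3 genes of each other list per comparison and up to 4 members per direction between hairpins were eligible by smallest p, and a selection of them is named. EIF4EBP1, and PSAT1 between shG9a and shsuz12, were named outside this rule.

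The settings tried instead were a pseudocount of 0.1 or 0.5, leaving out the filter, a filter on a mean of 3 RPKM, scaling by median ratios, quantile normalization, a common column sum, fitting just the 6 libraries compared, a block for the replicate number, and leaving out each library in turn. A correction for transcript length and GC content, with values for 94.4% of genes tested, was added after seeing the data. Gene locations and overlaps come from GENCODE v29 on GRCh38 and promoters from RefSeq on GRCh38.p14.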

Additional observations from a re-analysis of the deposited data

How the results depend on the processing

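Of 320 recounts of members higher or lower under another setting, 304 stayed within 1.5 times the main count. The exceptions lay mostly in shG9a. Against pLKO, members higher in shG9a numbered 7, and 4 without a filter; members lower numbered 16, and 10 after rescaling to a common sum. Members higher in shJarid2 numbered 15, and 9 in the model over the 6 libraries alone. Members lower in shG9a than in shsuz12 numbered 0, and 2 after median ratio scaling, 3 after quantile normalization, 1 after rescaling to a common sum, 2 in the model over the 6 libraries and 2 after correction for length and GC content.

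With 1 library left out in turn, members higher against pLKO numbered 13 to 13 in shPALI1, 2 to 4 in shG9a, 11 to 15 in shJarid2 and 2 to 2 in shsuz12, and members lower numbered 5 to 7 in shPALI1, 12 to 15 in shG9a, 10 to 12 in shJarid2 and 36 to 37 in shsuz12. Between hairpins, members higher and lower numbered 18 to 21 and 5 to 8 in shPALI1 against shG9a, where the 5 came without shG9a replicate 2, 15 to 19 and 8 to 9 in shPALI1 against shJarid2, and 33 to 35 and 2 to 2 in shPALI1 against shsuz12. They numbered 8 to 11 and 17 to 19 in shG9a against shJarid2, 26 to 30 and 0 to 0 in shG9a against shsuz12, and 2 to 4 and 32 to 33 in shsuz12 against shJarid2.

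Libraries of different groups share replicate numbers. The deviations of same-numbered libraries from their group means had correlations of -0.271 to 0.301. Of these 30 correlations 7 were over 0.1, and 7 of 15 libraries correlated best with their own number. The highest was that of replicate 1 of shJarid2 and shsuz12. Between pLKO replicate 1 and shJarid2 replicate 3 the correlation was 0.322. These values do not settle whether same-numbered libraries deviate together. With the replicate number as a block, members higher in shG9a numbered 4, with AARS, WARS and TARS no longer passing, and no other count moved by over 1.5 times.

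For single members against pLKO, 2470 of 2612 results kept their direction and their side of the threshold, 107 lost a call, 35 gained one and 0 reversed, over 164 results. Of 107 calls, 25 were lost under at least 1 alternative. Of all calls in shG9a, 42.7% were rises, and 58.0% after rescaling to a common sum; of those in shsuz12, 39.1% were rises, 53.3% after rescaling and 49.1% after quantile normalization. Rescaling moved the median of all genes in shsuz12 by 0.109, and the median of the members there was then -0.54.

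Depth limits the least abundant members, such as ALDH1L2, CBS, SLC7A5 and SLC1A4. With 3 libraries a group and 1 hairpin name a target, these values describe these libraries.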
